A study of Mus musculus with 9 samples.

Results

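The mouse mitochondrial genome encodes the RNAs described here: messenger RNAs for subunits of the respiratory chain, the large and small ribosomal RNAs of the mitochondrial ribosome, and transfer RNAs. They were taken as every gene in the deposited tables whose symbol begins with mt-, which gave 34 of 30153 genes: 13 protein genes, 2 rRNA genes and 19 tRNA genes. All 34 had the same coordinates in GENCODE M21, an annotation of the mouse build GRCm38 that lists 37 genes on this chromosome. The other 3 (mt-Td, mt-Tf and mt-Tg) were not analysed here. The RNA came from metaphase II oocytes, mature eggs arrested in the second meiotic division, of 4-week-old females of mixed genetic background. All groups shared the genotype Sycp3CreERT2/+; Rosa26nT-nG/+. Sycp3 is a meiotic gene, CreERT2 is a recombinase that acts in the presence of tamoxifen, and the reporter switches from a nuclear red to a nuclear green fluorescent protein once Cre has recombined it. Every female received 5 IU of PMSG and, 48 h later, 5 IU of hCG, and oocytes were collected 13 h after hCG, stripped of cumulus cells and sorted by eye under a fluorescence microscope. The groups were GFP High (pools of 15, 15 and 16 oocytes), GFP Low (49, 52 and 57) and RFP (87, 88 and 100), with 3 libraries in each. Pool sizes did not overlap between groups, so group and number of oocytes pooled cannot be told apart in any comparison. The labels do not say that the 3 pools of a group came from different females, so p-values measure only the spread between these pools.

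Mitochondrial DNA is transcribed from both strands into long precursors. The tRNAs lie between most of the mRNAs and rRNAs, and cutting them out releases the others, which then receive short poly(A) tails. For some mRNAs the tail also finishes the stop codon, because the genome encodes only its first base. A growing oocyte builds up its mitochondria and their genomes, and the early embryo depends on this maternal supply. Fragments of mitochondrial DNA have also been copied into nuclear chromosomes during evolution, and such copies are called nuclear mitochondrial pseudogenes.

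A large stretch of the mitochondrial genome has such a copy on the minus strand of chromosome 1, and the levels below are given by position relative to it. It was annotated as 7 unprocessed pseudogenes at chr1:24611535-24616197 (GRCm38), which match mt-Co1 (its last 483 bases), mt-Co2, mt-Atp6, mt-Co3, mt-Nd3, mt-Nd4l and mt-Nd4 (its first 876 bases) at 99.71 to 100% identity. In mitochondrial positions the stretch runs over 4653 bases, from MT:6390 to MT:11042. Only 2 substitutions were found in the aligned parts, T3C in mt-Nd3 against Gm28438 and A1066T in mt-Co1 against Gm29216, with positions counted from 1 at the 5′ end of the mitochondrial gene. The 41 bases from each of these 2 pairs are shown because they hold the only letters that tell gene and copy apart in the aligned parts. The substituted base is in capitals, and the pairs lie at MT:9459-9499 (plus strand), chr1:24613079-24613119 (minus), MT:6390-6430 (plus) and chr1:24616148-24616188 (minus).
mt-Nd3: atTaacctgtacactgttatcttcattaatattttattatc
Gm28438: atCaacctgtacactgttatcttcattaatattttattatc
mt-Co1: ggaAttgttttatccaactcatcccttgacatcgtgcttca
Gm29216: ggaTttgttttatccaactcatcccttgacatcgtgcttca

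The mRNAs also run into each other and into their tails. The genes mt-Atp8 and mt-Atp6 share 43 bases (MT:7927-7969, plus strand), mt-Nd4l and mt-Nd4 share 7, and mt-Nd5 and mt-Nd6, which lie on opposite strands, share 14. The first sequence below is the mt-Atp8 end that overlaps mt-Atp6, with the start codon of mt-Atp6 in capitals. The next 3 are the last 30 bases of the genes that end in a lone T, the only base of the stop codon present in the genome (mt-Co3 at MT:9361-9390, mt-Nd4 at MT:11515-11544, mt-Cytb at MT:15259-15288, all plus strand). The 10 other protein genes end in a complete stop codon, as mt-Nd5 does (MT:13536-13565, plus strand, stop codon in capitals).
mt-Atp8: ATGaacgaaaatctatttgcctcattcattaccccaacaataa
mt-Co3: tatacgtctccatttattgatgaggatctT
mt-Nd4: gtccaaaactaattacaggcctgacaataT
mt-Cytb: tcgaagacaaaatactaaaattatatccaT
mt-Nd5: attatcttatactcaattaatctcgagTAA

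Library totals lay between 19381677 and 27746256 counts. The oocyte marker list held 16 symbols, with H1foo and H1f8 the older and newer symbols of 1 gene. The 15 found, H1foo among them, were at 0 in no library and summed to between 11869 and 14123 CPM. Here CPM is a gene's counts scaled so that every library has the same total. The 18 cumulus and granulosa markers summed to 113 to 213 CPM (GFP High), 142 to 156 CPM (GFP Low) and 133 to 199.8 CPM (RFP), most of it from Nr5a2, with 2 to 12 of the 18 at 0 in a library. Amhr2 was at 0 but for 2 counts in RFP 1, and Amh was at 0 but for 8 counts in GFP Low 3. Of the 18, 5 (Inha, Inhba, Ptx3, Tnfaip6 and Fst) were highest in GFP High 1, GFP Low 1 and RFP 2, which is 1 library of each group. In those 3 libraries Inha had 88 to 144 counts, beside 0 to 12 in the other 6. Tnfaip6 had 129 to 249 beside 0 to 28, and Ptx3 122 to 221 beside 0 to 44. Inhba had 125 to 188 beside 0 to 66, and Fst 86 to 142 beside 0 to 27. The other 13 markers were not above all of the other 6 libraries in these 3. Cyp11a1 had 0 to 15 counts beside 0 to 85, Star 4 to 13 beside 1 to 51, and Lhcgr 0 to 6 beside 0 to 46. Cyp19a1 had 237 to 499 beside 165 to 491, so the other 6 were not free of listed markers. The name used below, the 3 libraries with cumulus transcripts, rests on the 5 genes alone. Results without these 3 libraries, a choice made after seeing the data, are given with each comparison, where 2 libraries then stand against 2. The reporter transcripts followed the labels: eGFP had 869 to 1081 counts in the GFP High libraries, 282 to 662 in those of GFP Low and 0 to 16 in those of RFP. The common biological coefficient of variation was 0.475 in GFP High against RFP and 0.247 in GFP Low against RFP. All values are relative to a library's total, so a change in mitochondrial RNA per oocyte and an opposite change in all other RNA cannot be told apart. In pools, fewer oocytes that carry an RNA and less of it per oocyte cannot be told apart either.

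Mitochondrially encoded RNAs took a little over 2% of the counts in every group. The share was 2.13%, 2.31% and 2.19% for the GFP High libraries, 2.34%, 2.05% and 2.26% for GFP Low, and 2.50%, 2.24% and 2.04% for RFP. Without GFP High 1, GFP Low 1 and RFP 2 the group means were 2.25%, 2.16% and 2.27%. RFP held both the highest and the lowest of the 9 libraries, and the 3 groups overlapped. The GFP High mean was 2.21% ± 0.0895, that of GFP Low 2.22% ± 0.148 and that of RFP 2.26% ± 0.234 (SD, n = 3 each). Exact binomial (Clopper-Pearson) 95% intervals of a library's share covered counting error only and were narrow, as in RFP 1 with 2.497% to 2.509%. The rRNAs made up 74.7% to 78.4% of the mitochondrial counts, the protein genes 21.5% to 25.1%, and the tRNAs 0.0439% to 0.137%. Genes on the minus strand held 2.12% to 2.27% of them.

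**Figure D1:**
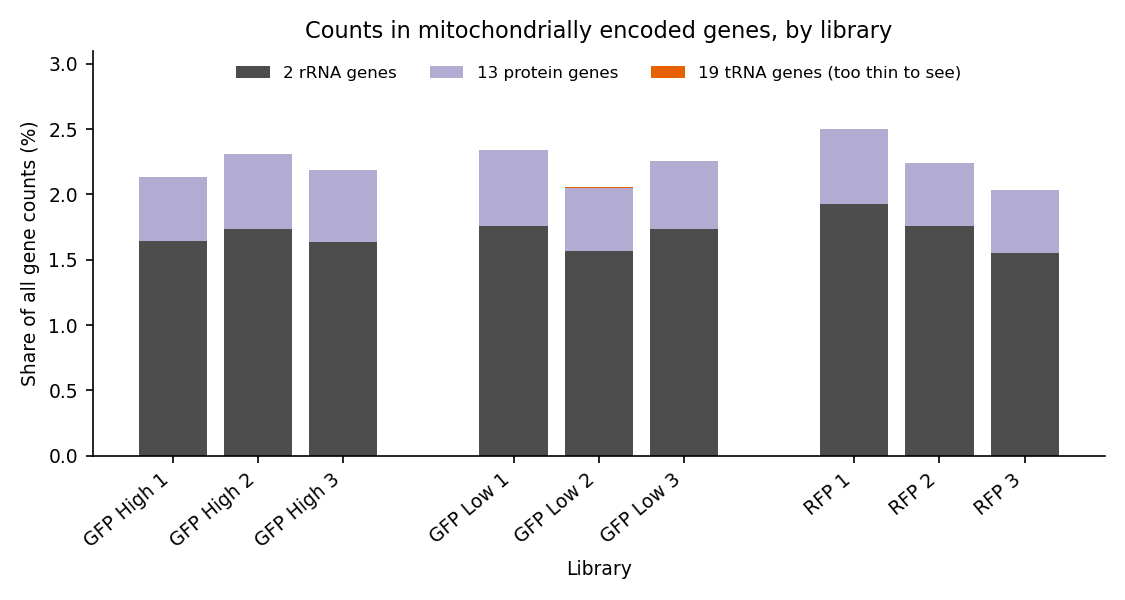
Share of all gene counts (y axis, percent) taken by mitochondrially encoded genes in each of the 9 libraries (x axis), stacked by kind of RNA. Bars lie between 2.04% and 2.50%, rRNA is the larger block in every library, and the tRNAs are too few to be seen.

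The mitochondrial ribosomal RNAs were among the most counted RNAs of the oocyte in these libraries, which were selected for poly(A). The large-subunit rRNA mt-Rnr2 (MT:1094-2675) ranked 2 among all genes by counts, and the small-subunit rRNA mt-Rnr1 (MT:70-1024) ranked 6. For mt-Rnr2 the GFP High libraries gave 12275, 13163 and 11913 CPM, the GFP Low libraries 12956, 11709 and 13236 CPM, and the RFP libraries 14821, 13147 and 11390 CPM. For mt-Rnr1 they gave 4153, 4178 and 4444 CPM, 4610, 3932 and 4102 CPM, and 4465, 4447 and 4130 CPM in the same order. Both genes overlapped between all groups. Per length, mt-Rnr2 was counted 1.80 ± 0.131 times as often as mt-Rnr1 (SD, n = 9 libraries), with a range of 1.62 to 2.00.

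The 6 mRNAs inside the stretch copied on chromosome 1 had far lower levels than the other 7. The comparison is per length, in CPM per kilobase, as the mean of the 9 libraries. Outside the stretch the complex III subunit mt-Cytb stood at 1013 (range 922 to 1164), and the complex I subunits mt-Nd6 at 919, mt-Nd1 at 681, mt-Nd5 at 622 and mt-Nd2 at 498. Inside it, the ATP synthase subunits mt-Atp6 and mt-Atp8 stood at 36.1 and 14.5. The cytochrome c oxidase (complex IV) subunits mt-Co2 and mt-Co3 were at 28.5 and 6.35, and the complex I subunits mt-Nd4l and mt-Nd3 at 12.4 and 6.69. The medians were 681 for the 5 genes outside and 13.4 for the 6 inside, a ratio of 50.7. No copy of mt-Atp8 is annotated, and without it the 5 genes inside had a median of 12.4, a ratio of 55.0.

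A gene crosses each edge of the stretch. The largest cytochrome c oxidase subunit, mt-Co1, has 1062 of its 1545 bases outside and stood at 559 CPM per kilobase. The complex I subunit mt-Nd4 has 502 of 1378 bases outside and stood at 298. When their counts were divided by the outside bases alone, which treats every count as coming from there, mt-Co1 came to 813 and mt-Nd4 to 818. Both then lay inside the range of the 5 genes outside. In that order mt-Rnr2 was above mt-Rnr1 and mt-Rnr1 above mt-Cytb with no overlap over libraries. From mt-Cytb down to mt-Nd2 each neighbouring pair overlapped in range, and mt-Nd4 was above mt-Co1 in 5 of the 9 libraries.

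**Figure D2:**
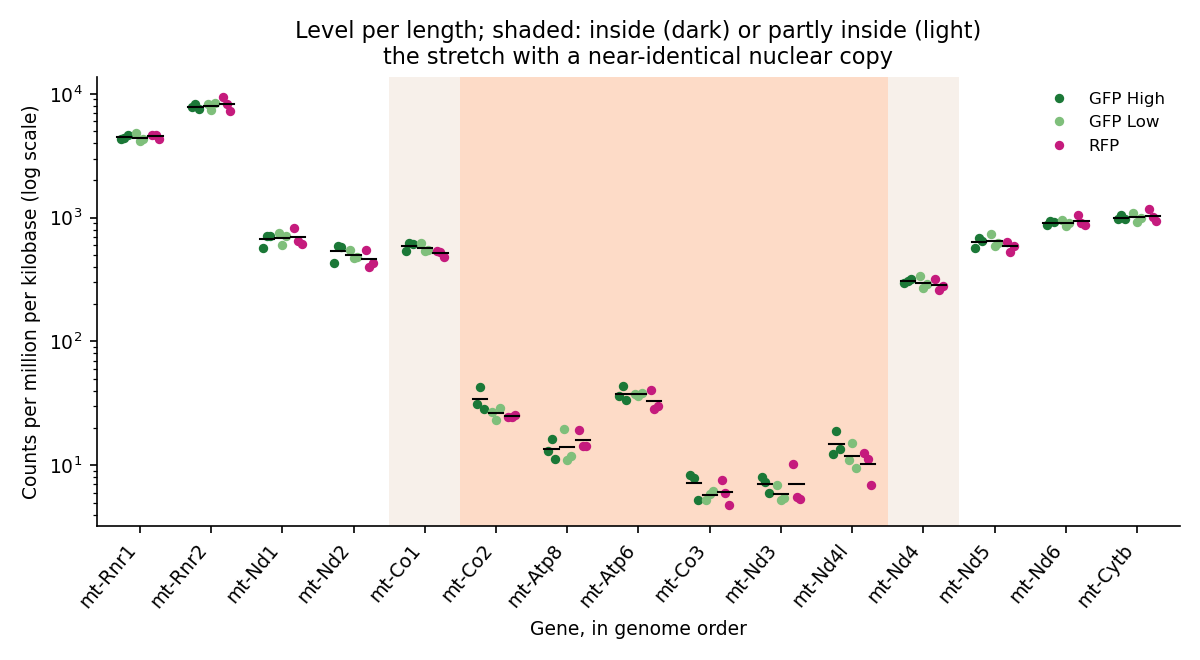
CPM per kilobase of gene (log axis) for the rRNA and protein genes in genome order, with 1 point per library, coloured by group, and a bar at each group's mean. The 6 genes on the dark shading lie wholly inside the copied stretch, at levels between 4.73 and 43.7 in single libraries, while mt-Co1 and mt-Nd4 (light shading) and the unshaded genes lie higher.

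The single libraries of the complex I and III mRNAs outside the stretch overlapped between all groups. For mt-Cytb, the only complex III subunit encoded here, GFP High gave 1116, 1211 and 1105 CPM, GFP Low 1245, 1055 and 1143 CPM, and RFP 1332, 1148 and 1075 CPM. The mt-Nd5 libraries of the same groups gave 1032, 1259 and 1184 CPM, then 1334, 1068 and 1131 CPM, then 1165, 956 and 1085 CPM. For mt-Nd1 they gave 548, 684 and 685 CPM, then 713, 578 and 674 CPM, then 784, 619.8 and 583 CPM. RFP 1 was the highest library for mt-Cytb and mt-Nd1, and GFP Low 1 for mt-Nd5. For mt-Nd2 they gave 448, 616 and 605 CPM, then 568, 488 and 496 CPM, then 571, 417 and 446 CPM. For mt-Nd4, which crosses the edge, they gave 411, 421 and 441 CPM, then 462, 369 and 402 CPM, then 439, 359 and 389 CPM.

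The mRNAs inside the stretch rested on few counts, between 44 and 743 in a library. Of the ATP synthase subunits, mt-Atp6 averaged 25.8 ± 3.61 CPM for GFP High, 25.5 ± 0.892 for GFP Low and 22.5 ± 4.39 for RFP, and mt-Atp8 2.77 ± 0.522, 2.88 ± 0.953 and 3.24 ± 0.576 CPM (SD, n = 3). The complex IV subunit mt-Co3 averaged 5.63 ± 1.30, 4.49 ± 0.382 and 4.81 ± 1.14 CPM in that order. The complex I subunits mt-Nd3 and mt-Nd4l averaged 2.48 ± 0.369, 2.05 ± 0.325 and 2.45 ± 0.961 CPM, and 4.44 ± 1.03, 3.54 ± 0.846 and 3.04 ± 0.880 CPM. For these 5 genes all groups overlapped.

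Reads from the copied stretch can be assigned to either place, and both places received counts. As examples, for mt-Co2 99.5% of the 100-base windows in the gene also occur in another annotated transcript, for mt-Co1 30.8%, for mt-Nd4 60.8%, and for mt-Cytb, mt-Nd1 and mt-Nd6 0%. For mt-Atp8 the value was also 0%. It lies between mt-Co2 and mt-Atp6, and the sequence of chromosome 1 between their annotated copies was not compared here. The copies of mt-Co2, mt-Atp6, mt-Co3 and mt-Nd4l were counted at 0.267, 1.33, 0.791 and 2.55 times their mitochondrial gene (medians of 9 libraries). How reads that match more than 1 place were counted is not given in the sources used here, so the levels of the 6 genes inside are uncertain, and the part of multiple matches in their low values was not tested.

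The mitochondrial mt-Nd3 had 44 to 94 counts in a library, while Gm28438, which carries the T3C base shown above, had 2315 to 4471. The copy was counted 43.1 to 69.9 times as often, with a median of 52.6. Per length Gm28438 stood at 378 CPM per kilobase (268 to 520), against 6.69 for mt-Nd3 and 54.2 for Gm10925, the next highest of the 7 copies. For mt-Co1 there were 18378 to 24133 counts, with its 1062 bases outside the stretch included, and 31 to 103 for Gm29216. The gene mt-Nd4, which has no substitution against Gm28439 in the aligned part and also reaches outside, had 8134 to 11598 counts and its copy 49 to 191. Whether the T3C base is also carried by the mitochondrial genomes of these mice of mixed background was not tested, since reads were not used here.

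**Figure D3:**
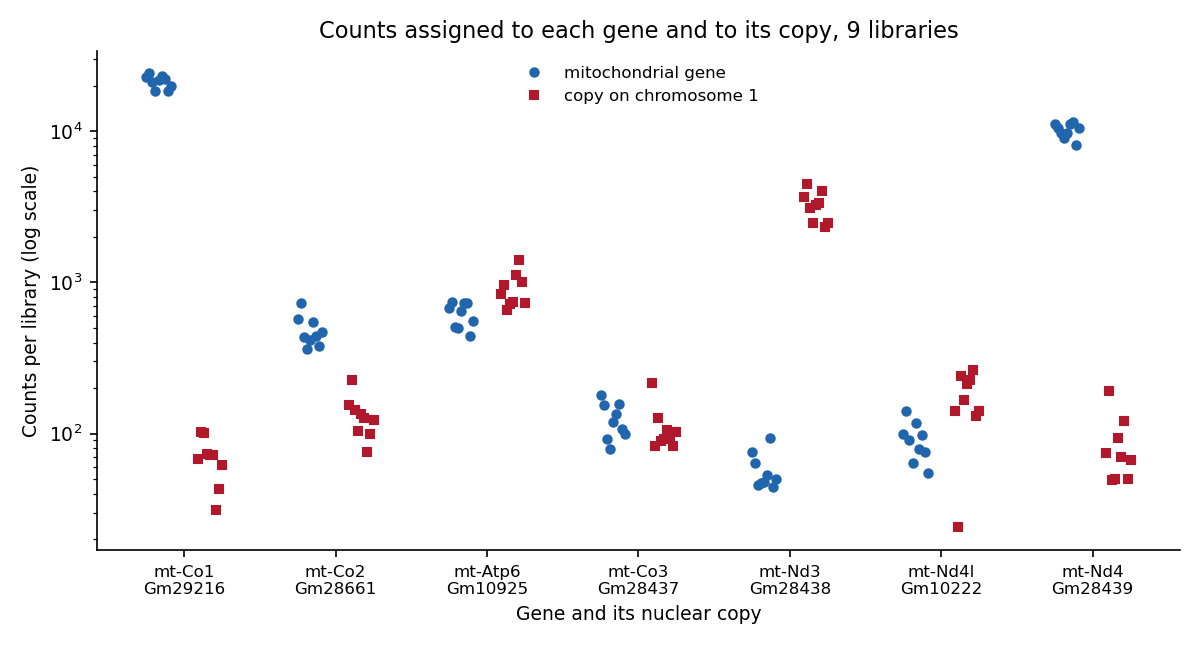
Counts in each of the 9 libraries (log axis) for 7 mitochondrial genes (blue circles) and their copies on chromosome 1 (red squares). Gm28438 lies above mt-Nd3 in every library, at a median of 52.6 times its counts, and mt-Co1 and mt-Nd4 lie above their copies.

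GFP High oocytes were compared with RFP oocytes for each member in an edgeR quasi-likelihood fit over all 14829 genes that passed its filter on low counts. None of the 22 members tested had an adjusted p under 0.05, the threshold used here, and 0.0135% of all genes tested did. By DESeq2 and by limma-voom the count of members was also 0, with 3 and 1 at an unadjusted p under 0.05. The 22 were both rRNAs, all 13 protein genes and 7 tRNAs, and 12 tRNAs were too low to test. At an unadjusted p under 0.05 there were 2 members, mt-Tc and mt-Co1, against 4.09% of all genes. Of these, mt-Tc passed the filter only with the GFP High libraries, where it is high, so it supports no difference. The groups did not overlap for mt-Co2 and mt-Tl1, both higher in GFP High, against 4.75% of all genes tested in that direction. None was lower without overlap, against 7.28%. The median log2 fold change of the members was 0.15, beside -0.01 for all genes tested, and without the tRNAs it was 0.11. It was 0.25 without RFP 1 and 0.08 without RFP 2. Without the 3 libraries with cumulus transcripts it was 0.13, none of 25 members had an adjusted p under 0.05 in edgeR, and mt-Tc and mt-Co1 again had an unadjusted p under 0.05, beside 5.13% of all genes. Of the 15 oocyte markers 5 were higher in GFP High without overlap, and their part in the members' values was not tested.

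The complex IV genes mt-Co1 and mt-Co2 had the smallest p among the protein genes. For mt-Co1 the GFP High libraries gave 834, 968 and 949 CPM, those of GFP Low 959, 832 and 842 CPM, and those of RFP 835, 812 and 737 CPM. GFP High had a higher mean than RFP (917 ± 72.1 and 795 ± 50.96 CPM), and the lowest GFP High library was level with the highest of RFP. The log2 fold change was 0.22 (SE 0.09, 95% interval 0.02 to 0.42), with an unadjusted p of 0.0344 and an adjusted p of 0.997 in edgeR. For mt-Co2 the GFP High libraries gave 21.2, 29.5 and 19.5 CPM, those of GFP Low 18.6, 15.8 and 19.8 CPM, and those of RFP 16.9, 16.7 and 17.4 CPM. All 3 GFP High libraries were above the RFP libraries, and the log2 fold change was 0.48 (SE 0.22, adjusted p = 0.997 in edgeR). Its copy Gm28661 was likewise above RFP in all 3 GFP High libraries, at 5.65 to 9.10 against 2.84 to 4.57 CPM.

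The abundant RNAs had narrower intervals than the genes inside the copied stretch. These intervals are per gene, cover the spread between these pools only and are relative to library totals. For mt-Rnr1 the 95% interval of the log2 fold change ran from -0.15 to 0.12 and for mt-Rnr2 from -0.26 to 0.14. For mt-Cytb it ran from -0.25 to 0.17 and for mt-Nd6 from -0.25 to 0.18. The other complex I mRNAs outside or across the edge of the copied stretch had log2 fold changes of -0.04 (mt-Nd1), 0.23 (mt-Nd2), 0.11 (mt-Nd4) and 0.13 (mt-Nd5). Over the 9 rRNA and protein genes outside or partly inside the stretch, the intervals stayed between 0.795-fold and 1.49-fold. Over the 6 genes inside, they spanned 0.394-fold to 3.09-fold, with mt-Atp6 at a log2 fold change of 0.21, mt-Atp8 at -0.21, mt-Co3 at 0.24, mt-Nd3 at 0.03 and mt-Nd4l at 0.56.

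GFP Low and RFP oocytes were compared in the same way. None of 25 members tested had an adjusted p under 0.05 in edgeR, DESeq2 or limma-voom, beside 0.0197% of the 15199 genes tested in edgeR. DESeq2 and limma-voom had 0 and 1 members at an unadjusted p under 0.05. The median log2 fold change was 0.06, beside 0.00 for all genes tested, and -0.01 without the tRNAs. With 1 library left out it was 0.14 (RFP 1), -0.01 (RFP 2), -0.03 (GFP Low 1) and 0.11 (GFP Low 2). Without the 3 libraries with cumulus transcripts it was -0.06, and none of 25 members had an adjusted p under 0.05 in edgeR or an unadjusted one, beside 4.01% of all genes for the latter. At an unadjusted p under 0.05 there was 1 member, mt-Tt, beside 2.62% of all genes. It was also the only one whose groups did not overlap, beside 3.38% of all genes in that direction. In the other direction no member was found, beside 4.34%. The gene mt-Tt passed the filter on low counts only through the GFP Low libraries, where it is high. Its lack of overlap follows from that filter, so neither value supports a difference. The mt-Co1 log2 fold change was 0.15 (95% interval -0.02 to 0.33), and those of mt-Rnr2 and mt-Rnr1 were -0.05 and -0.04. The 9 rRNA and protein genes outside or partly inside the copied stretch had intervals between 0.842-fold and 1.29-fold. This comparison and the one above share the RFP libraries.

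GFP High against GFP Low showed no member that separated the groups. None of 26 members tested had an adjusted p under 0.05 in edgeR, DESeq2 or limma-voom, nor an unadjusted p under 0.05 in any of them with all 6 libraries. Of all 14785 genes tested in edgeR, 0% and 3.77% did. The median log2 fold change was 0.09, beside 0.00 for all genes tested, and 0.02 without the tRNAs. With 1 library left out it was 0.02 (GFP High 2), 0.03 (GFP High 3), 0.18 (GFP Low 1), -0.02 (GFP Low 2) and 0.03 (GFP Low 3). Without the 3 libraries with cumulus transcripts it was 0.16 and no adjusted p of 27 members was under 0.05 in edgeR. In that fit mt-Nd2 (log2 fold change 0.31, SE 0.08) and mt-Co1 (0.20, SE 0.08) had an unadjusted p under 0.05, beside 4.48% of all genes. For mt-Rnr2 it was -0.02 (-0.14 to 0.11), for mt-Cytb 0.00 (-0.17 to 0.17) and for mt-Co1 0.07 (-0.12 to 0.26). The smallest unadjusted p among members was that of mt-Co2, with a log2 fold change of 0.38 (SE 0.23, unadjusted p = 0.126, adjusted p = 0.998 in edgeR). The groups overlapped for every member, while 4.78% of all genes tested were higher and 6.71% lower in GFP High without overlap.

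**Figure D4:**
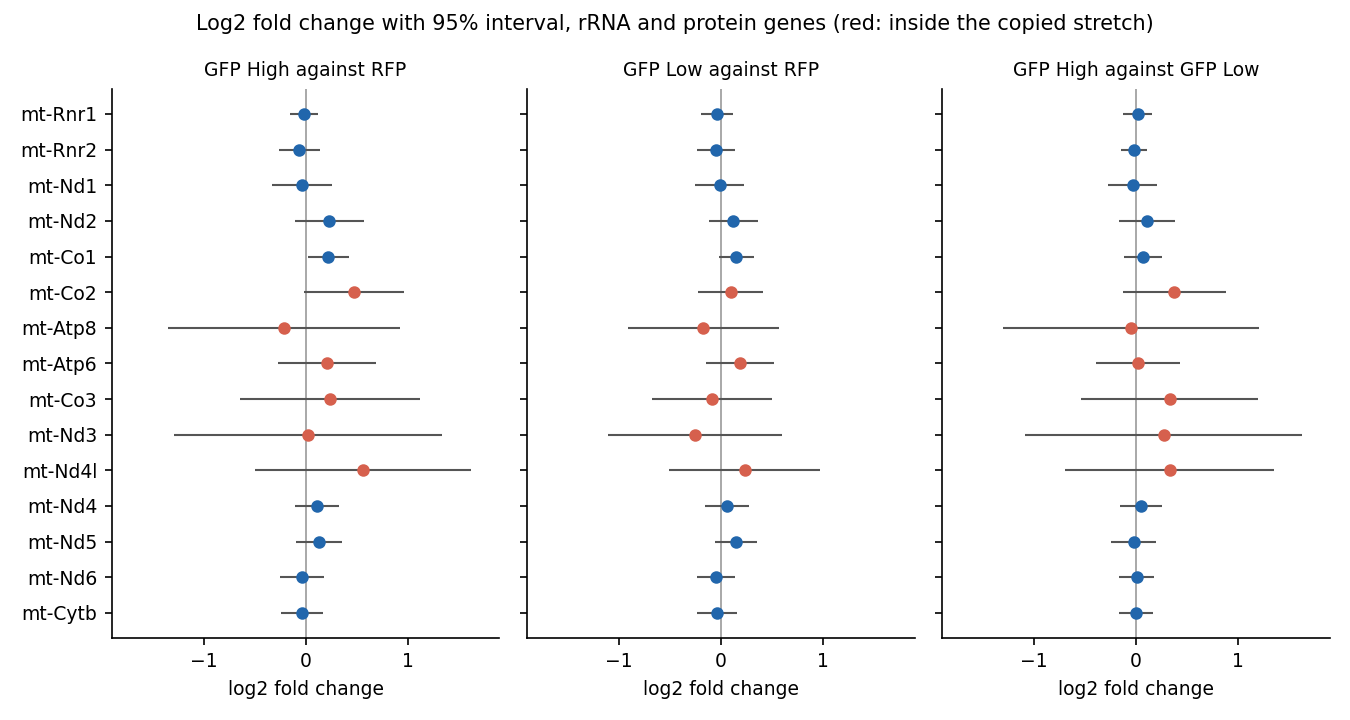
Log2 fold change (points) with its 95% interval (lines) for the rRNA and protein genes in the 3 comparisons, on the same axis. Intervals of the genes inside the copied stretch (red) are wider than those of the others (blue), and the interval of mt-Co1 in GFP High against RFP is the only one drawn that does not include 0.

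Within the mitochondrial counts, mt-Co1 took a larger share in both GFP groups than in RFP. The share of mt-Co1 was 3.91%, 4.19% and 4.34% of the mitochondrial counts for GFP High, 4.10%, 4.05% and 3.73% for GFP Low, and 3.34%, 3.62% and 3.62% for RFP. All 6 GFP libraries were above the 3 RFP libraries, and both GFP groups share those 3. On this scale 3 of the 15 rRNA and protein genes did not overlap between GFP High and RFP (mt-Co1, mt-Co2 and mt-Nd4l, all higher), beside 4.98% of all genes tested in that direction and 9.6% in either. Against RFP, GFP Low had 1 such gene (mt-Co1), beside 2.89% and 5.61%. Against GFP Low, GFP High had 1 (mt-Co2), beside 4.47% and 9.79%. These shares were looked at after the values above were known and are given without a test. The gene mt-Cytb took 5.05% to 5.32% and mt-Nd6 2.08% to 2.21% of the mitochondrial counts over all 9 libraries.

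**Figure D5:**
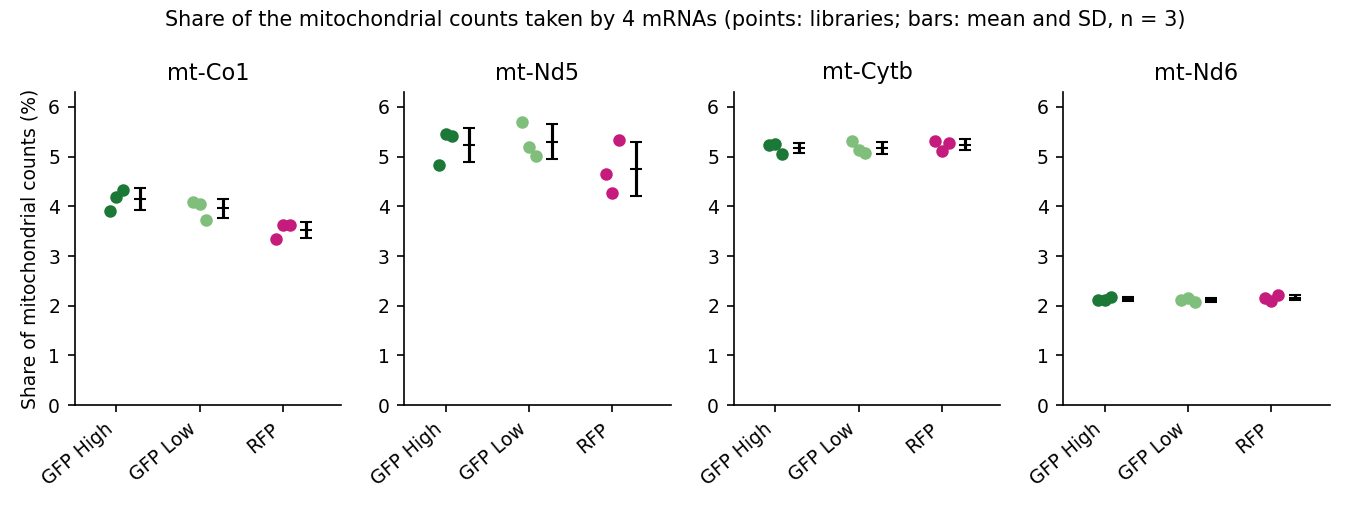
Share of the mitochondrial counts (percent) taken by mt-Co1, mt-Nd5, mt-Cytb and mt-Nd6, with 1 point per library and the mean and SD of each group (n = 3). The 3 RFP points of mt-Co1 lie below the 6 GFP points, while the groups overlap for the other 3 genes.

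The mRNA mt-Nd6, the only one encoded on the minus strand, which in human cells is known to lack a stable poly(A) tail, was not low in these libraries. Its GFP High libraries gave 450, 491 and 476 CPM, those of GFP Low 497, 443 and 470 CPM, and those of RFP 542, 472 and 450 CPM. Its neighbours on the other strand, mt-Nd5 and mt-Cytb, stood at 622 and 1013 CPM per kilobase beside its 919. Whether the counting used strand is not given in the sources used here, so reads of mt-Nd6 and of the precursor on the opposite strand cannot be told apart.

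The tRNAs were counted little, and 4 of the 19 had a count in every library (mt-Tp, mt-Tv, mt-Tl1 and mt-Tc). These 4 and mt-Th were the 5 highest by mean. The other 14 had means of 0.0102 to 0.716 CPM and at most 55 counts in a library. Mature tRNAs are short and carry no poly(A) tail, and whether the counts come from tRNAs or from precursors that contain them was not tested. The 5 sequences are shown 5′ to 3′ with the anticodon, as found from the stem and loop, in capitals: mt-Tp (MT:15356-15422, minus), mt-Tv (MT:1025-1093, plus), mt-Tl1 (MT:2676-2750, plus), mt-Tc (MT:5192-5257, minus) and mt-Th (MT:11546-11612, plus).
mt-Tp: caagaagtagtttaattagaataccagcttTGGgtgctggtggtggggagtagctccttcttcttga
mt-Tv: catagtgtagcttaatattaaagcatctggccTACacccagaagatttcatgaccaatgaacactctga
mt-Tl1: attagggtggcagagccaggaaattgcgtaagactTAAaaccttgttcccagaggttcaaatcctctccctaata
mt-Tc: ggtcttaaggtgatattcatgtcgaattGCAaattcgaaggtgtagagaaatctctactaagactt
mt-Th: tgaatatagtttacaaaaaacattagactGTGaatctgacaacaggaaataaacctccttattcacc

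The proline tRNA mt-Tp was the highest, at 7.64, 6.78 and 12.1 CPM for GFP High, 9.34, 6.46 and 6.24 CPM for GFP Low, and 5.87, 7.37 and 10.4 CPM for RFP, with all groups overlapping. Its strand is the opposite of that of mt-Cytb and mt-Rnr1. The valine tRNA mt-Tv and the leucine tRNA mt-Tl1, which flank mt-Rnr2, had means of 1.63 and 1.49 CPM. For mt-Tl1 the GFP High libraries gave 2.72, 1.96 and 1.66 CPM, those of GFP Low 1.24, 2.17 and 1.19 CPM, and those of RFP 0.758, 1.32 and 0.408 CPM. GFP High was above RFP in all libraries, and the log2 fold change of 1.36 (SE 0.83) had an adjusted p of 0.997 in edgeR.

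The tRNAs with the smallest p varied widely within a group. The cysteine tRNA mt-Tc had 18, 139 and 64 counts for GFP High, 14, 53 and 3 for GFP Low, and 3, 3 and 26 for RFP. Of its 3 GFP High libraries 1 lay inside the RFP range. The log2 fold change in GFP High against RFP of 2.91 (SE 1.14) had an unadjusted p of 0.0284 and an adjusted p of 0.997 in edgeR. In that comparison mt-Tc passed the filter on low counts only with the GFP High libraries. The threonine tRNA mt-Tt had 17, 23 and 17 counts in GFP Low and 1, 6 and 9 in RFP, which do not overlap. In GFP High it had 0, 41 and 1. It passed the filter for GFP Low against RFP only through GFP Low, so the lack of overlap supports no difference. Its log2 fold change in GFP Low against RFP was 1.88 (SE 0.86, unadjusted p = 0.0486, adjusted p = 1.00 in edgeR). The 95% intervals of the tRNAs reached from 0.0216-fold (the lower bound of mt-Tq) to 54.5-fold (the upper bound of mt-Th) in GFP High against RFP.

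Nuclear genes that make, process and remove mitochondrial RNA were counted as well, from lists of 55 genes found in the tables. In edgeR none of the 49, 51 and 51 tested passed an adjusted p of 0.05 in GFP High against RFP, GFP Low against RFP and GFP High against GFP Low. At an unadjusted p under 0.05 there were 1, 1 and 2 of them (Trnt1, Fastkd1, and Trnt1 with Slirp, named after their values were seen), beside the shares of all genes given above. Their median log2 fold changes were -0.01, 0.00 and -0.03. Groups did not overlap for 3, 3 and 8 of them, in the same order, beside 12%, 7.71% and 11.5% of all genes tested. Slirp is in both counts for GFP High against GFP Low. It passed the filter on low counts there only through GFP Low, where it is high, so it supports no difference.

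Among transcription genes, the mitochondrial RNA polymerase Polrmt averaged 12.9 ± 2.51 CPM for GFP High, 11.9 ± 0.699 for GFP Low and 9.95 ± 2.03 for RFP (SD, n = 3; the same order is kept below). Tfam, which binds and packages mitochondrial DNA and starts transcription, was at 25.7 ± 7.72, 27.2 ± 4.196 and 27.0 ± 2.06 CPM. The most abundant per length of that list was Mterf4, at 154 ± 9.25, 154 ± 11.9 and 151 ± 6.79 CPM. Among the mitochondrial DNA replication genes, the helicase Twnk was at 40.3 ± 10.4, 43.8 ± 4.45 and 44.0 ± 8.21 CPM and the nuclease Rnaseh1 at 63.0 ± 9.30, 55.1 ± 4.14 and 59.3 ± 1.33 CPM. The groups overlapped for all 5 of these genes.

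Of the 17 processing genes tested, 1 was higher and 3 were lower in GFP High than in GFP Low without overlap, beside 4.78% and 6.71% of all genes tested. Elac2, the nuclease that trims the 3′ end of precursor tRNAs, was at 172 ± 27.1, 175 ± 4.76 and 172 ± 18.9 CPM. Ptcd2, the next most abundant per length, was at 51.8 ± 1.67, 57.8 ± 3.32 and 56.0 ± 4.51 CPM, and its GFP High libraries lay below those of GFP Low (log2 fold change -0.15, SE 0.13). Trnt1, which adds the CCA end to tRNAs, was at 130.5 ± 5.66, 107 ± 9.55 and 107 ± 13.3 CPM. Its 3 GFP High libraries (125 to 137 CPM) lay above the other 6 (93.9 to 120 CPM), and the log2 fold change against RFP was 0.30 (SE 0.12, unadjusted p = 0.0326, adjusted p = 0.997 in edgeR). The mitochondrial poly(A) polymerase Mtpap was at 40.4 ± 7.59, 46.7 ± 3.62 and 50.03 ± 5.58 CPM, the RNA-binding protein Grsf1 at 64.0 ± 10.2, 54.6 ± 5.73 and 57.4 ± 1.93 CPM, and Lrpprc, which stabilises mitochondrial mRNAs, at 99.5 ± 7.41, 90.4 ± 5.67 and 98.1 ± 14.1 CPM. Slirp, the partner of Lrpprc, had no count in the 3 GFP High libraries. It had 0.418 to 2.34 CPM in those of GFP Low and 0.227 to 0.883 CPM in those of RFP, where 3 counts correspond to 0.108 to 0.155 CPM. In GFP High against GFP Low it passed the filter only through GFP Low. The GFP High pools held the fewest oocytes, and whether the missing counts relate to pool size was not tested. Among the 5 RNA decay genes none had groups without overlap. The helicase Supv3l1 was at 83.4 ± 5.43, 80.5 ± 6.64 and 79.9 ± 13.7 CPM and its partner nuclease Pnpt1 at 10.8 ± 5.22, 10.6 ± 3.77 and 10.9 ± 2.24 CPM. Rexo2, which degrades the shortest RNA fragments, was at 32.3 ± 4.99, 35.9 ± 4.87 and 35.0 ± 2.85 CPM.

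The 9 members with at least 100 CPM had a median coefficient of variation of 8.39% over the 9 libraries (5.22% to 14.4%), beside 8.68% for 2287 genes at that level. By group the members' median was 5.17% for GFP High, 8.36% for GFP Low and 10.3% for RFP, beside 9.42%, 5.53% and 7.26% for the 2287 genes. Of the 9, mt-Rnr1 varied least and mt-Nd2 most.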

How the data were processed

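RNA-seq counts of 9 oocyte pools, 3 per group, were analysed. Reads were paired-end from poly(A)-selected RNA, per the labels' protocols. The submitters' processing notes name fastp, HISAT2 2.0.5, featureCounts 1.5.0-p3, DESeq2 1.20.0 and mm10. The handling of reads that match several places and the strand setting are not given in the sources used here. The authors deposited 3 tables, 1 per pair of groups, each with raw read counts per gene, which entered all tests. Per the file headers and values, the deposited tables also hold a normalised signal (counts over a size factor), FPKM values, gene lengths, and for each gene the authors' own log2 fold change with a p-value before and after adjustment. FPKM was used only as an alternative, and the signal entered no result. In the authors' deposited table no member had an adjusted p-value under 0.05 (lowest 0.373 in GFP High against RFP).

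Tables were joined by gene, and a library without a value for a gene was set to 0 (178 genes). Each pair of groups was fitted with edgeR 4.0.16 in R 4.3.3 (filterByExpr, TMM, glmQLFit, glmQLFTest, defaults, Benjamini-Hochberg over all genes tested, threshold 0.05) on its 6 libraries. Alternatives used DESeq2 1.42.0, limma 3.58.1 and other settings given under the limits. The fit was tested on simulated counts with a lower biological coefficient of variation than the common one of these data. That test therefore does not measure the power of the comparisons here. Nuclear copies were found with BLAST 2.17.0 among GENCODE M21 transcripts (at least 95% identity over 100 bases), the source of all sequences shown. All rRNA and protein genes are named, as are the 5 highest tRNAs and those with the smallest p. Of each nuclear list the 2 highest per length are named, and Lrpprc, Slirp, Mtpap, Polrmt, Tfam, Twnk and Pnpt1. The members and lists were chosen with earlier results of these data known.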

Additional observations from a re-analysis of the deposited data

How the results depend on the processing

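No alternative (other size factors, scaling without mitochondrial genes, no filter on low counts, DESeq2, limma-voom, all 9 libraries in 1 fit, the replicate block, each library left out, the 3 libraries with cumulus transcripts left out) gave a member an adjusted p under 0.05. Deviations from the group means correlated between libraries of the same replicate number by -0.11 to 0.12, so no pairing by number was seen. Such values over all genes cannot show that libraries of the same number shared no female or day. Fitting the replicate numbers as a block gave 4 genes of all those tested in GFP High against RFP in place of 2, and no member. Of all genes, GFP High against RFP gave 16 without the filter, 12 by DESeq2 and 1 by limma-voom, with 0 to 2 when a library was left out (0 when the one left out was GFP High 1 or 3, or RFP 2 or 3). GFP Low against RFP gave 3 in edgeR, 34 without the filter, 10 by DESeq2 and 1 by limma-voom, with 2 to 3 when a library was left out. GFP High against GFP Low gave 0 in edgeR, 16 without the filter and 4 by DESeq2, with 0 to 1 when a library was left out (1 without GFP High 3). The cause was not tested. The share of mitochondrial counts became 0.580%, 0.571% and 0.549% (GFP High, GFP Low, RFP) over protein-coding genes only, and 2.60%, 2.68% and 2.98% in FPKM. With 1 library left out it stayed within 2.16% to 2.25%, 2.16% to 2.30% and 2.14% to 2.37%. The members' median log2 fold change in GFP Low against RFP was -0.01 without RFP 2 and -0.03 without GFP Low 1, and in GFP High against GFP Low -0.02 without GFP Low 2. Leaving out the tRNAs, and leaving out GFP High 1, GFP Low 1 and RFP 2 together, were added after seeing the data. Without those 3 libraries GFP High against RFP gave 0 of all genes, GFP Low against RFP 3 and GFP High against GFP Low 0, and the members' medians were 0.13, -0.06 and 0.16. Of 1021 log2 fold changes of single members under alternatives, 87 changed sign, none of them called, and 45 moved by over 1 SE. Ranked by the edgeR value on all 6 libraries, the largest that changed sign was 1.22, for mt-Tc in GFP Low against RFP. It was 0.00 without GFP Low 2. Some smaller values moved further, as that of mt-Ts2 in GFP High against GFP Low. From 0.47 it went to -6.26 without GFP High 3, -3.21 with the replicate block and -1.88 by limma-voom. Intervals were widest for the tRNAs and the 6 genes inside the copied stretch.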

Other observations

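Other nuclear copies of mitochondrial genes lie elsewhere and were counted at lower levels. Gm13340 (chromosome 2, 97.6% identical to mt-Co1) had 11 to 38 counts in a library, Gm13339 (chromosome 2, 96.7% identical to part of mt-Nd2) 1 to 7, and Gm4076 (chromosome 13, 95.2% identical to part of mt-Nd5) 0 to 2. They differ from the mitochondrial genes at 37, 17 and 45 aligned positions, while the 7 copies on chromosome 1 differ at 1 at most.

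Of the 11 copies found, 8 were tested, and none had an adjusted p under 0.05 in edgeR in any comparison. At an unadjusted p under 0.05 there was 1, Gm28438 in GFP High against GFP Low (log2 fold change 0.30, SE 0.13), beside 3.77% of all genes tested. In that comparison 2 of the 8, Gm28438 and Gm28661, were higher without overlap, beside 4.78% of all genes in that direction. In both GFP High against RFP and GFP Low against RFP, 3 of the 8 were higher without overlap, beside 4.75% and 3.38% of all genes tested in that direction. They were Gm29216, Gm13340 and Gm28661, which are copies of mt-Co1, mt-Co1 and mt-Co2. Gm29216 averaged 3.72 ± 1.08 CPM for GFP High, 3.03 ± 0.639 for GFP Low and 1.79 ± 0.571 for RFP (SD, n = 3). Gm13340 was at 1.43 ± 0.248, 1.18 ± 0.285 and 0.691 ± 0.238 CPM. Their log2 fold changes in GFP High against RFP were 1.07 (SE 0.58) and 1.06 (SE 0.93). Both comparisons use the same RFP libraries, the genes were singled out after their values were seen, and reads of mt-Co1 may be among their counts.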
